A study of Homo sapiens with 20 samples.

Results

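The GADD45 family comprises GADD45A, GADD45B and GADD45G, 3 of the 20314 genes in the count table, and these members were taken by their gene symbols. The samples were U2-OS cells, which derive from a human osteosarcoma, with 5 RNA-seq libraries in each of 4 groups. One group was untreated, and the next pair were harvested 90 minutes and 7 days after irradiation (IR) with 20 Gy. In the last group, which was not irradiated, NFKBIA was knocked down with an shRNA. The irradiated groups give an early and a late time after DNA damage, and the knockdown gives cells with less of an NF-kB inhibitor and no irradiation.

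For the shRNA lines of the study, the methods describe lentiviral vectors, induction with doxycycline and clonal selection with puromycin, so that clone and vector cannot be told apart from the knockdown. Scrambled shRNA lines given doxycycline are named there as the general control, but the untreated libraries are labelled with neither. The paper calls the untreated and irradiated samples biological replicates, 5 in each group, and its methods describe quintuplicates. How the samples of a group were kept apart is not described. The edgeR p-values below rest on the spread between them, estimated for each gene over the 4 groups together.

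GADD45 proteins are small, acidic, mostly nuclear stress sensors without known enzymatic activity, and they act by binding partners. They bind and activate the kinase MTK1 (MAP3K4) upstream of p38 and JNK, they contact CDK1 with cyclin B1, PCNA and p21 in the control of the cell cycle, and they have been tied to active DNA demethylation. GADD45A is the member first known for its induction by DNA damage, GADD45B is known as a target of NF-kB and of TGF-beta signalling that can restrain JNK, and GADD45G responds to differentiation and cytokine signals in other tissues.

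Each library held between 22535659 and 40390961 counts. Levels are given as CPM, the counts of a gene per 1000000 counts of its library after scaling with TMM factors, and 14992 genes (73.8%) had enough counts to be tested. Calls were made with edgeR's quasi-likelihood test and needed an adjusted p under 0.05 and a change of more than 0.5 on the log2 scale, up for a higher call and down for a lower one. GADD45A and GADD45B passed the filter on low counts and GADD45G did not.

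Untreated replicate 5 stood apart from the other libraries before any gene was compared. It had the fewest counts, 22535659 against 26693224 in the next lowest library. It lay at 56.8 on the third principal component, on which the other libraries lay between -19.7 and 5.79. Its median correlation of log2 CPM with its own group was 0.978, against 0.989 to 0.997 in the other libraries. It was also the untreated library that the labels place on sequencing lane 3, whereas untreated replicates 1 to 4 were on lane 2. Changes of NFKBIA and of the members against untreated cells, and counts of list genes where they differ, are therefore also given without it.

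The lanes run along the groups. The irradiated cells at 90 min were on lanes 3 and 4, those at 7 days on lanes 4 and 5, and the knockdown on lanes 5 and 6. Lanes 3, 4 and 5 each hold libraries of a pair of groups, and the differences within them are given beside the pooled ones. No lane holds both groups for 7 days or the knockdown against untreated, or for the knockdown against 90 min post-IR, where lane and group cannot be told apart within a lane.

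The mesenchymal character of the line was visible in its markers. VIM, COL1A1, SPARC and FN1 were each at 617 CPM or more in the mean of every group, and the 8 mesenchymal and osteoblastic markers summed to 11327 ± 1948 CPM in untreated cells, 10195 ± 439 at 90 min, 13221 ± 635 at 7 days and 7058 ± 235 in the knockdown (SD, n = 5). FN1 was the most abundant of them in untreated and irradiated cells. The osteoblast factor SP7 was too low to be tested, and COL1A2 was at 0.411 CPM in untreated cells. In the knockdown COL1A1 fell by 1.68, FN1 by 1.24 and ALPL by 1.96 on the log2 scale. At 7 days ALPL and FN1 rose and SPARC fell, and with the lane as a factor ALPL (-0.11) and FN1 (0.38) did not pass. RUNX2 was called lower at 90 min (-0.56), and it was at -0.26, not called, without untreated replicate 5. In a fit of only the 2 groups compared its value was -0.545, with an adjusted p of 0.181.

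Markers of other cell types were low apart from KRT18. Of 8 epithelial, blood and endothelial genes 7 were matched by symbol, and their sum was 507 ± 105 CPM in untreated cells, 481 ± 32.6 at 90 min, 459 ± 7.54 at 7 days and 476 ± 17.3 in the knockdown (SD, n = 5). KRT18 was the most abundant in every library, and without it these sums were 7.5, 7.72, 5.95 and 4.65 CPM. CD3E had at most 12 counts in a library and was too low to be tested. CDH1 and PTPRC were called lower in the knockdown, and EPCAM and CDH1 at 7 days. Without untreated replicate 5, PTPRC was also called higher at 7 days and VWF lower in the knockdown. When lane was a factor, EPCAM at 7 days did not pass (-0.73, adjusted p = 0.0602). Whether these markers had a part in the results for the GADD45 genes was not tested.

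NFKBIA, the target of the shRNA, encodes the NF-kB inhibitor I-kappa-B-alpha and is itself an NF-kB target. It was at 28.6, 23.5, 27.4, 35.0 and 42.0 CPM in untreated replicates 1 to 5. In the knockdown it was at 13.0, 11.2, 12.1, 12.0 and 12.4 CPM. All knockdown libraries lay below all untreated ones, with a log2 fold change of -1.36 (SE 0.109, edgeR adjusted p = 4.87e-09), so the target gene was lower in every library labelled as its knockdown. At 90 min post-IR NFKBIA was at 88.3, 76.3, 80.0, 78.8 and 87.0 CPM, above every untreated library (log2 fold change 1.40). These changes were -1.25 and 1.5 without untreated replicate 5. At 7 days it was at 30.4, 28.4, 32.4, 32.0 and 30.5 CPM, within the range of the untreated libraries, and was not called, though a model holding lane called it lower (-0.54, adjusted p = 0.0207).

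The 3 GADD45 genes lie on different chromosomes, and each has 4 exons in its principal transcript. In GENCODE 29 on GRCh38, GADD45A (ENSG00000116717) lies at chr1:67685061-67688338 on the plus strand and codes for 165 residues. GADD45B (ENSG00000099860) lies at chr19:2476122-2478259 on the plus strand and codes for 160 residues. GADD45G (ENSG00000130222) lies at chr9:89605013-89606555, also on the plus strand, and codes for 159 residues. No other annotated gene overlaps any of them. The reads had been aligned to hg19, so these positions describe the genes and not the alignment.

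As paralogs the members resemble each other in their coding sequence, but not over the length of a read. Aligned coding sequences of GADD45A and GADD45B were identical at 60.4% of columns, those of GADD45A and GADD45G at 61.9%, and those of GADD45B and GADD45G at 63.8%. The longest run of identical bases between any transcripts was 15 for GADD45A with GADD45B, 18 for GADD45A with GADD45G and 13 for GADD45B with GADD45G. How the counting treated reads with several matches is not given in the sources used here.

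The promoters of GADD45B and GADD45G are shown because the members are set apart here by the factors said to drive them. RefSeq promoter sequence (GRCh38.p14) was matched for 2 of the 3 members and not for GADD45A. The 250 bases before the start are given 5′ to 3′, for GADD45B at chr19:2475877-2476126 (+) and for GADD45G at chr9:89604762-89605011 (+). Capitals mark the E-box CACGTG, the box CCAAT and the letters TATAA, which were chosen after the sequences had been seen.
GADD45B: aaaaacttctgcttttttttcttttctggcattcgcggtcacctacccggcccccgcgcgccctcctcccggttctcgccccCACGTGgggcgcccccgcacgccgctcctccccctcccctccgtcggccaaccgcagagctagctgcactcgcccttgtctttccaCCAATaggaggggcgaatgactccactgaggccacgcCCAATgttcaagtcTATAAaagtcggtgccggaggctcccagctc
GADD45G: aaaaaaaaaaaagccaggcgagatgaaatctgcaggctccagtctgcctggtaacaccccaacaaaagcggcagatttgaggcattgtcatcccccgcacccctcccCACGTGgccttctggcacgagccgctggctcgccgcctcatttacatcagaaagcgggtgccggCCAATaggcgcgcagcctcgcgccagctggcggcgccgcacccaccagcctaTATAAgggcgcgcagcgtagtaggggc
Both promoters hold these motifs in the same order. In GADD45B the letters TATAA begin 31 bases before the start, CCAAT begins at 82 and again at 45, and CACGTG begins at 168. In GADD45G the letters TATAA begin 27 bases before the start, CCAAT begins at 79, and CACGTG begins at 143. Of 35116 promoters of this length, 6.3% hold the E-box, 32% the CCAAT box and 18.9% the letters TATAA on either strand. The kB site of NF-kB matched in GADD45B at 163 to 154, on both strands and overlapping CACGTG, and at 15 to 6, whereas no match was found in GADD45G. A kB site was present in 10.0% of promoters. These matches describe letters and say nothing about binding, and they give no comparison of GADD45B with GADD45A.

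GADD45A rose after irradiation and in the knockdown. It was at 45.2, 48.2, 42.0, 59.2 and 50.7 CPM in untreated replicates 1 to 5. At 90 min post-IR it was at 132, 114, 113, 113 and 118 CPM, and at 7 days at 141, 146, 145, 152 and 151 CPM. In the knockdown it was at 86.6, 83.7, 88.2, 88.3 and 103 CPM. No library of any group overlapped with another group, and replicate 1 at 90 min and replicate 5 of the knockdown were the high ones of their groups. In bulk RNA, a change in the number of cells that express a gene and in its RNA per cell cannot be told apart.

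GADD45B was lower at 7 days and in the knockdown, and at 90 min it lay within the spread of the untreated libraries. It was at 42.6, 35.1, 41.8, 53.4 and 45.1 CPM in untreated replicates 1 to 5. At 90 min post-IR it was at 42.0, 38.4, 37.6, 39.2 and 40.7 CPM. At 7 days it was at 23.2, 23.9, 21.9, 23.4 and 23.6 CPM, and in the knockdown at 30.6, 29.3, 30.8, 25.9 and 29.3 CPM. All libraries at 7 days lay below all knockdown libraries, and these lay below all libraries of the other groups.

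**Figure D1:**
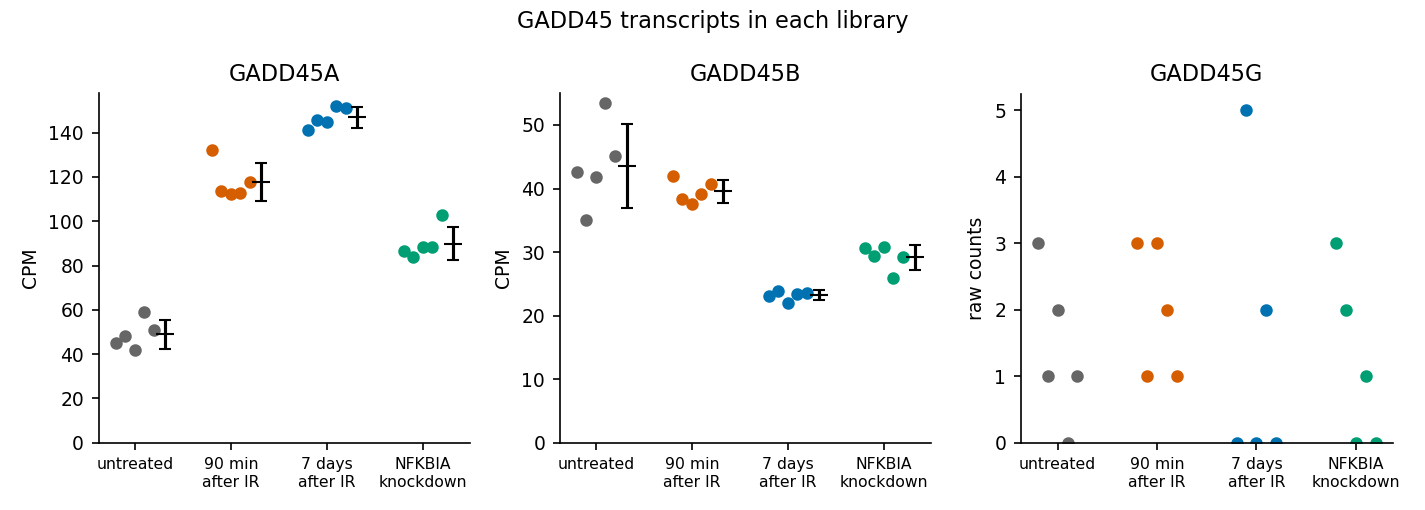
Each point is a library, with CPM on the vertical axis for GADD45A and GADD45B and raw counts for GADD45G, and bars give the mean and SD of 5 libraries. GADD45A lies between 42.0 and 59.2 CPM in untreated cells and between 141 and 152 CPM at 7 days, while GADD45B goes from 35.1 to 53.4 CPM down to 21.9 to 23.9 CPM and GADD45G stays at 5 counts or fewer.

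GADD45G was close to the limit of detection in all groups. It had 0 to 3 counts in untreated libraries, 1 to 3 at 90 min, 0 to 5 at 7 days and 0 to 3 in the knockdown, 30 counts in all over 14 of the 20 libraries. A count of 3 corresponds to 0.0751 to 0.143 CPM at these depths, and this limit covers counting error only. Changes of GADD45G within this range of counts could not be resolved at this depth, and no library exceeded 5 counts. When all 19097 genes with a count were tested, its edgeR adjusted p ranged from 0.719 to 1 over the 6 comparisons.

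Per kilobase of exon, GADD45A and GADD45B were closest to each other in untreated cells and further apart in the other groups. GADD45A was at 23.7 ± 3.16 CPM per kilobase in untreated cells, 56.9 ± 4.06 at 90 min, 71.1 ± 2.27 at 7 days and 43.5 ± 3.59 in the knockdown (SD, n = 5). GADD45B was at 20.4 ± 3.09, 18.5 ± 0.834, 10.9 ± 0.357 and 13.6 ± 0.922 CPM per kilobase in the same order. Among the genes tested, the level of GADD45A per kilobase was at percentile 84.3 in untreated cells and 96.7 at 7 days, and that of GADD45B at percentiles 81.5 and 66.6. GADD45G did not exceed 0.124 CPM per kilobase in any library.

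The summed level of the expressed members still increased, because GADD45A gained more than GADD45B lost. The sum was 44.1 ± 5.80 CPM per kilobase in untreated cells, 75.4 ± 4.81 at 90 min, 81.9 ± 2.41 at 7 days and 57.1 ± 3.68 in the knockdown (SD, n = 5). The share of GADD45A in this sum was 53.8% in untreated cells, 75.4% at 90 min, 86.7% at 7 days and 76.0% in the knockdown.

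At 90 min post-IR, 2.08% of the genes tested were called higher, 1.57% lower and 3.66% in either direction, and of the expressed members 1 was called. The split of all genes varied, from 312 higher and 236 lower to 286 and 94 in a fit of only the 2 groups and to 1781 and 2039 with lane in the model. GADD45A rose 2.4-fold, with a log2 fold change of 1.26 (SE 0.0765, edgeR adjusted p = 1.43e-10), the 44th highest of all genes tested. For GADD45B the log2 fold change was -0.14, with a 95% interval of -0.30 to 0.02 (edgeR adjusted p = 0.216), and it did not pass. These values were 1.27 and -0.13 without untreated replicate 5. Within lane 3, with 3 irradiated libraries and 1 untreated library, the differences were 1.23 for GADD45A and -0.20 for GADD45B.

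At 7 days post-IR, a larger part of the genes was called, 31.1% in all, with 16.7% higher and 14.4% lower, and both expressed members were among them. GADD45A rose 3.0-fold, by 1.58 on the log2 scale (SE 0.0770, edgeR adjusted p = 2.22e-13), and ranked 596th from the top. GADD45B fell by 0.91 on the log2 scale (SE 0.0788, edgeR adjusted p = 2.32e-09). Without untreated replicate 5 the values were 1.58 and -0.92.

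In the knockdown, 12.7% of genes were called, 5.18% higher and 7.53% lower, and again GADD45A rose and GADD45B fell. GADD45A rose 1.83-fold, by 0.87 on the log2 scale (SE 0.0762, edgeR adjusted p = 1.45e-08). GADD45B fell by 0.58 on the log2 scale (SE 0.0780, edgeR adjusted p = 5.47e-06). The values were 0.87 and -0.58 when untreated replicate 5 was left out. With the sequencing lane as a factor, GADD45B lost its call (-0.54, edgeR adjusted p = 0.104), while GADD45A kept it (0.77, adjusted p = 0.0190). In that model the untreated group is joined to the other lanes through replicate 5 alone. Scaling by library size alone changed the split of all genes called in the knockdown from 777 higher and 1129 lower (40.8% higher) to 971 higher and 924 lower (51.2% higher), and kept the calls of both members.

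Between the irradiated groups, 29.3% of genes were called, 16.8% higher and 12.6% lower at 7 days. GADD45B was lower at 7 days than at 90 min, by 0.77 on the log2 scale (SE 0.0785, edgeR adjusted p = 3.06e-08). GADD45A was 0.32 higher on the log2 scale (SE 0.0746, edgeR adjusted p = 0.000875), under the threshold of 0.5. Within lane 4, with 2 libraries of each time, the differences were 0.32 for GADD45A and -0.76 for GADD45B.

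The knockdown was compared with both irradiated groups. Against 90 min post-IR, where 14.1% of genes were called, 6.54% higher and 7.60% lower, neither expressed member passed the threshold on size. GADD45A was at -0.39 (SE 0.0750, edgeR adjusted p = 0.000265) and GADD45B at -0.44 (SE 0.0778, edgeR adjusted p = 0.000114), and in the model with lane as a factor they were at -0.47 and -0.35 with adjusted p of 0.116 and 0.302. Against 7 days, where 25.7% of genes were called, 9.89% higher and 15.8% lower, GADD45A was lower by 0.71 (log2 fold change -0.71, SE 0.0751, edgeR adjusted p = 6.27e-08). GADD45B was 0.33 higher there (SE 0.0791, edgeR adjusted p = 0.00122) and not called. Within lane 5, with 1 knockdown library and 3 libraries at 7 days, the differences were -0.79 for GADD45A and 0.41 for GADD45B.

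**Figure D2:**
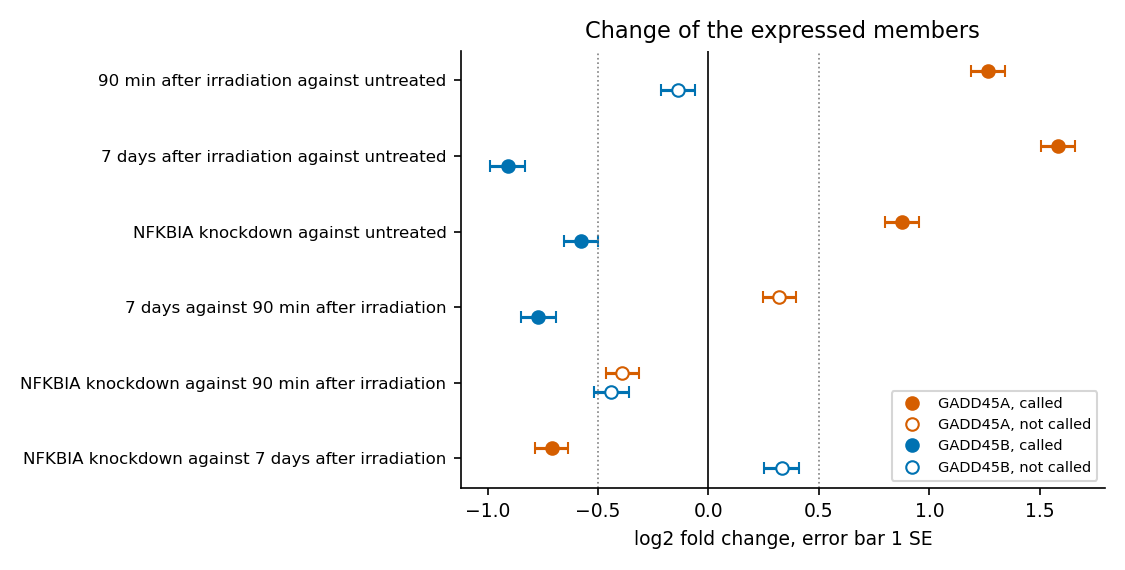
Log2 fold change of GADD45A and GADD45B in the 6 comparisons, with bars of 1 SE from the edgeR model, filled where called and open where not, and dotted lines at the threshold of 0.5. GADD45A is at 1.26, 1.58 and 0.87 against untreated cells, and GADD45B at -0.14, -0.91 and -0.58.

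The order of GADD45A was thus 7 days, 90 min, knockdown and untreated, from high to low, and neighbours differed with edgeR adjusted p of 0.000875, 0.000265 and 1.45e-08. The order of GADD45B was untreated, 90 min, knockdown and 7 days. Untreated and 90 min, neighbours in this order, did not differ beyond their spread in the main fit. Over 19 alternatives with edgeR or DESeq2 the adjusted p of that step ranged from 0.0268 to 0.508. The other neighbours differed with edgeR adjusted p of 0.000114 and 0.00122. With lane in the model the step between 90 min and the knockdown was of similar size in both genes and its adjusted p was above 0.05, as given above.

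Whether GADD45A and GADD45B changed differently was tested by their ratio within each library, which needs no scaling. The log2 ratio of GADD45A to GADD45B was 0.08, 0.46, 0.01, 0.15 and 0.17 in untreated replicates 1 to 5. It was 1.65, 1.56, 1.58, 1.52 and 1.53 at 90 min, and 2.60, 2.60, 2.72, 2.70 and 2.68 at 7 days. In the knockdown it was 1.5, 1.51, 1.52, 1.77 and 1.81. The untreated libraries were below, and the libraries at 7 days above, those of all other groups. The libraries at 90 min lay inside the range of the knockdown.

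The ratio therefore separated all pairs of groups except 90 min and the knockdown. Against untreated cells it was higher by 1.40 at 90 min, by 2.49 at 7 days and by 1.45 in the knockdown. It was higher by 1.09 at 7 days than at 90 min, and the knockdown minus 7 days was -1.04. In each of these 5 comparisons the exact two-sided permutation p was 0.00794, the smallest that 5 libraries against 5 allow, and 0.00952 after adjustment over the 6 comparisons. The knockdown and 90 min differed by 0.05 (exact permutation p = 0.484). The differences from untreated were 1.40, 2.49 and 1.45 without untreated replicate 5. Within lanes they were 1.43 for 90 min against untreated, 1.08 for 7 days against 90 min and -1.20 for the knockdown against 7 days.

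**Figure D3:**
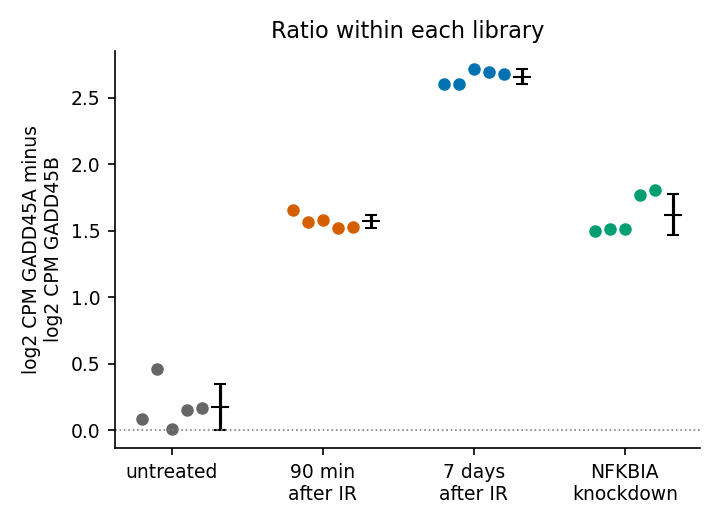
Log2 CPM of GADD45A minus log2 CPM of GADD45B in each of the 20 libraries, with the mean and SD of 5 libraries per group. The means are 0.17 in untreated cells, 1.57 at 90 min, 2.66 at 7 days and 1.62 in the knockdown.

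NF-kB target genes were taken as a list of 26 besides the GADD45 genes, of which 22 were tested. At 90 min 11 were called higher and 0 lower, where 2.08% of all genes were called higher (median 0.53 beside -0.03 over all genes). They included CXCL8, which encodes interleukin-8 (1.87), BIRC3, an inhibitor of apoptosis (1.5), and TNFAIP3, which encodes the feedback inhibitor A20 (1.41). With lane in the model NFKBIZ (0.10), CXCL3 (0.87, adjusted p = 0.160) and CCL2 (0.31) lost their calls at 90 min, and NFKBIZ also lost it without untreated replicate 1 (0.50) or 4 (0.45). At 7 days 11 were called higher and 0 lower, beside 16.7% of all genes called higher (median 0.50 beside 0.01), among them CXCL8 (3.65), the cytokine gene IL6 (2.63) and the chemokine gene CXCL3 (2.08). BIRC3 was at 1.66 at that time. TNFAIP3 was at 0.55, and was not called without untreated replicate 4 (0.48) or without replicate 3 at 7 days (0.49). When lane was a factor, TNFAIP3 (-0.07) and IL6 (1.43) at 7 days were not called. Without untreated replicate 5 the counts were 12 at 90 min and 10 at 7 days.

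In the knockdown more NF-kB targets were called lower than higher, 7 against 2 of 22, beside 7.53% and 5.18% of all genes (median -0.31 beside -0.01). NFKBIA itself was 1 of the 7. The chemokine gene CCL2 (-1.19), BIRC3 (-0.72) and TNFAIP3 (-0.52) were also lower, and TNFAIP2 (0.72) and CXCL8 (0.60) were higher. Without untreated replicate 5 the counts were 5 lower and 1 higher, with CXCL8 (0.48) and TNFAIP3 (-0.42) not called. The median of the list was then -0.20. Of the 7 genes called lower, TNFAIP3, RELB and IER3 were not called with library size alone (-0.46, -0.46 and -0.44) or with upper-quartile factors (-0.49, -0.49 and -0.48). RELB and IER3 also lost their calls with the replicate block and when any of several libraries was left out, and ICAM1 in a fit of only the 2 groups (-0.64 in both fits, adjusted p = 0.0569). RELB was at 0.22 with lane in the model. With the lane as a factor, TNFAIP2 (0.98, adjusted p = 0.211) and CXCL8 (0.74, adjusted p = 0.118) were not called in edgeR's test, although neither value was smaller.

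Against untreated cells, most NF-kB targets had a higher log2 fold change than GADD45B, and so did most of all genes. At 90 min 21 of the 22 were above it, at 7 days all 22 and in the knockdown 18, beside 72.5%, 94.5% and 93.1% of all genes tested. GADD45A had 6, 6 and 0 of the 22 above it, beside 0.287%, 3.97% and 2.13% of all genes. In the knockdown 7 of the 22 were above GADD45B against 90 min and 1 against 7 days, beside 89.6% and 18.2% of all genes. The 3 comparisons with untreated cells share the untreated libraries.

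**Figure D4:**
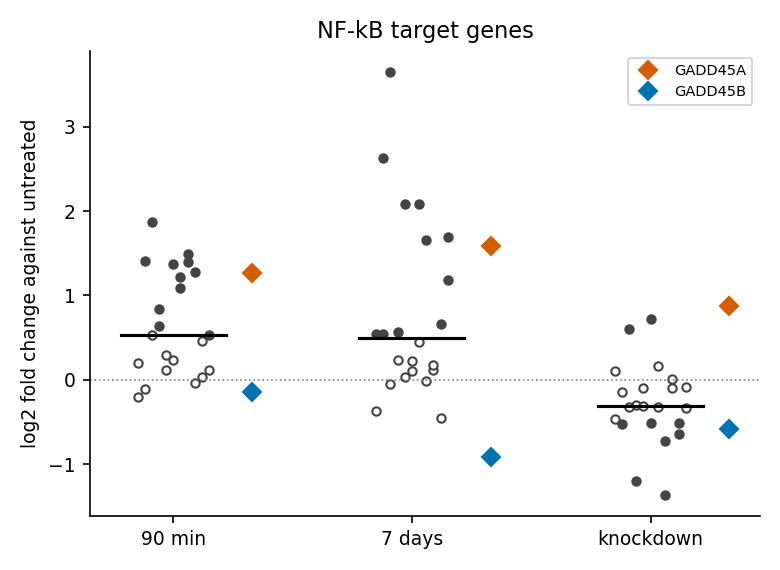
Log2 fold change against untreated cells at 90 min, at 7 days and in the knockdown for the 22 tested NF-kB target genes, filled where called, with a line at the median and diamonds for GADD45A and GADD45B. The medians are 0.53, 0.50 and -0.31, and at 7 days GADD45B lies below all 22 genes.

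Transcription factors that have been described for GADD45 genes were examined for their own mRNA. Of 22 tested, 2 were called higher at 90 min, ATF3 (2.60) and CEBPB (0.60), and 0 lower, beside 2.08% and 1.57% of all genes. CEBPB was at 0.46 and not called without untreated replicate 5, while EGR1 went from 0.17 to 0.61 and was called higher. With lane in the model EGR1 was called lower (-0.88, adjusted p = 0.000136). In a fit of only the 2 groups compared CEBPB was at 0.62 with an adjusted p of 0.0754. RELA, which encodes p65, was at -0.24, -0.17 and -0.20 at 90 min, at 7 days and in the knockdown, and none of these passed. RELA was at 216 CPM in untreated replicate 5 and between 114 and 123 CPM in the other 19 libraries, and without that replicate it was at -0.03, 0.03 and 0.00. With the lane as a factor RELA was called lower at 90 min (-0.91), at 7 days (-0.84) and in the knockdown (-0.85), and that model joins the untreated group to the other lanes through this replicate alone.

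At 7 days 3 of these factors were called higher, TP63 (0.98), ATF3 (0.93) and FOXO1 (0.55), and 3 lower, TP73 (-1.60), POU2F1 (-0.55) and ATF4 (-0.54), beside 16.7% and 14.4% of all genes. Without untreated replicate 5 the counts were 5 higher, with MYC and SMAD3 added, and 2 lower. FOXO1 was not called without untreated replicate 4 (0.44), POU2F1 not without untreated replicate 5 (-0.40), and ATF4 not without untreated replicate 2 (-0.47) or 4 (-0.47). Scaling by library size alone ended the calls of ATF4 (-0.49) and POU2F1 (-0.50). BRCA1 was at -0.49 and not called at 7 days. It was called lower with RLE factors (-0.51), DESeq2 (-0.51), no filter (-0.53), only the 2 groups fitted (-0.51) or the lane as a factor (-0.82). Leaving out a library changed its call in 6 of 10 fits. MYC was at 0.495 and not called, and was called higher with upper-quartile factors (0.51), library size alone (0.55) or the replicate block (0.51). TP63 was low, at 0.190 CPM in untreated cells. In the knockdown 0 were called higher and 2 lower, TP73 (-0.79) and ATF3 (-0.62), beside 5.18% and 7.53% of all genes. When lane was a factor, TP63 (2.03, adjusted p = 0.0757) and FOXO1 (0.20) at 7 days and ATF3 (-0.39) in the knockdown were not called, and ATF4 at 7 days was at 0.01. Genes of the list that this model newly called lower included EGR1 (-1.20) at 7 days, and EGR1 (-1.31), MYC (-0.65) and BRCA1 (-0.60) in the knockdown.

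Among the kinases through which GADD45 proteins signal, 10 genes from MTK1 to p38 and JNK, 0 were called at 90 min and 0 in the knockdown, beside 3.66% and 12.7% of all genes. At 7 days 4 of the 10 were called, beside 31.1%. There MAP3K4, the gene of MTK1, fell by 0.68 and MAP2K6, an activator of p38, fell by 3.03 on the log2 scale, from 2.39 to 0.295 CPM. MAPK11, which encodes p38 beta, rose by 0.83, and MAP2K3, another activator of p38, by 0.54. MAP2K3 was at 0.45 and not called without untreated replicate 5. The edgeR medians of this list were 0.05, -0.02 and -0.14 at 90 min, at 7 days and in the knockdown. They were -0.03, -0.07 and -0.24 without untreated replicate 5.

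Most genes of a cell cycle list were called lower at 7 days. The list holds the genes of the partners named above, CDK1, CCNB1, PCNA and CDKN1A (p21), and other cell cycle genes. Of those partners CDK1 and CCNB1 were called lower, CDKN1A higher, and PCNA was not called. Of all 10 genes of the list, 7 were called lower and 1, CDKN1A, higher, beside 14.4% and 16.7% of all genes. CDK1 fell by 0.58 and CCNB1, its cyclin, by 0.91 on the log2 scale, and the mitotic kinase genes PLK1 and AURKA by 1.57 and 1.03. CCNB2, CDC25B and CDC25C were at -1.16, -1.05 and -1.19. At 90 min PLK1 (-0.74) and AURKA (-0.71) were called lower, beside 1.57% of all genes, and CDKN1A higher. In the knockdown CDC25B (-0.71) and PLK1 (-0.63) were called lower, beside 7.53%. PCNA and WEE1 did not pass in any of the 3 comparisons with all libraries. The list had medians of -0.19, -0.97 and -0.27, and of -0.28, -1.04 and -0.37 without untreated replicate 5. Without untreated replicate 5 the counts lower were 2 at 90 min, 8 at 7 days, with WEE1 added, and 3 in the knockdown, with CCNB2 added. With the lane as a factor, CCNB1 at 7 days was at -0.27 and was not called.

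Of 9 genes listed for DNA demethylation, 0 were called at 90 min, beside 3.66% of all genes. At 7 days TET1 (-1.74), TET3 (-0.65) and ING1 (-0.67) were called lower and 0 higher, beside 14.4% and 16.7% of all genes. In the knockdown, where 12.7% of all genes were called, TET1 was the 1 called, at -0.59, and it was at -0.41 and not called without untreated replicate 5. TET1 and TET3 encode enzymes that oxidise methylcytosine, and ING1 encodes a chromatin reader that has been reported to recruit GADD45A. The medians of this list were 0.00, -0.37 and -0.16, and 0.08, -0.23 and -0.07 without untreated replicate 5.

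Of 3 other genes named for growth arrest and DNA damage, 0 were called at 90 min, beside 3.66% of all genes, when PPP1R15A (GADD34) was 0.34 higher (edgeR adjusted p = 0.000211), under the threshold of 0.5. At 7 days all 3 were called, beside 31.1% of all genes. DDIT3, which encodes CHOP (GADD153), rose by 1.56 and PPP1R15A, a regulatory subunit of protein phosphatase 1, by 0.95 on the log2 scale. DDIT4 fell by 1.11 at 7 days, but it was at -0.65 (edgeR adjusted p = 0.101) without untreated replicate 2 and at 0.97 (edgeR adjusted p = 0.369) with the lane as a factor. In the knockdown 0 of 3 were called, beside 12.7%.

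The genes whose log2 CPM followed GADD45A most closely over the 20 libraries were ANKRA2 (r = 0.952), GDF15 (r = 0.952), WDR43 (r = 0.951), COQ10B (r = 0.944) and OSGIN2 (r = 0.944). GADD45A had 44 genes with r above 0.9. GADD45B was followed most closely by DNAJC1 (r = 0.988), EBP (r = 0.983), FDPS (r = 0.983), HDGF (r = 0.982) and ACTB (r = 0.980), and had 331 genes above 0.9. Among these, EBP went from 56.1 CPM in untreated cells to 49.5 at 90 min, 20.3 at 7 days and 30.9 in the knockdown, the order of GADD45B. The libraries fall into 4 groups that share treatment and, in part, lane, so these correlations describe a common order of the groups.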

How the data were processed

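The 20 samples were made into stranded mRNA libraries and sequenced on a HiSeq instrument. Per the submitters' processing notes, bcl2fastq, Trimmomatic and STAR 2.4.2a were used, with hg19. The counting tool, annotation and strand setting are not given in the sources used here. The deposited table holds raw counts, whole numbers without normalization, for 20314 genes, of which 18635 had a symbol.

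Counts were analysed with edgeR 4.0.16 in R 4.3.3. Genes were filtered by filterByExpr (minimum count 10), libraries scaled by TMM, and 1 quasi-likelihood model of the 4 groups was fitted to all 20 libraries without a covariate. The spread of a gene was thus shared by the groups, although the SD of GADD45B was 6.61 CPM in untreated cells and 0.762 CPM at 7 days. Benjamini-Hochberg adjustment ran over 14992 genes. Log2 CPM used a prior count of 2. The log2 ratio of GADD45A to GADD45B was compared by exact two-sided permutation. The fit was tested on simulated data. No pair of libraries within a group was a duplicate (chi-square per gene 1.75 to 166 over 40 pairs). The range was 11.8 to 166 in untreated cells and 3.04 to 22.2 at 90 min. It was 1.75 to 4.19 at 7 days and 1.82 to 8.56 in the knockdown.

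The members and lists were chosen with earlier results of these data known. Genes named in the text come from the members, NFKBIA, all genes of lists of 10 or fewer, up to 3 called genes with the largest rise and fall per comparison with untreated cells from longer lists, ATF3, ATF4, BRCA1, EGR1, MYC, RELA, NFKB1, CDKN1A, MDM2, TNFAIP3 and BIRC3, and the 5 genes most correlated with each member. Lists were matched by symbol, and 1 list and some single genes are not reported here. Per kilobase values used the gene widths of the deposited table, which for the members equal the merged exons of GENCODE 29. Promoter motifs were searched on both strands, the kB site by its consensus. Alternatives were other scalings (RLE, upper quartile, library size alone), DESeq2 1.42.0, other filters, a fit of the compared groups alone, a factor for replicate number or for lane, and each library left out. List counts without untreated replicate 5 were added after seeing the data.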

Additional observations from a re-analysis of the deposited data

Results flagged for a closer look

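In 2 of the 16 groups of 5 libraries examined, the gap between the highest library and its nearest neighbour was a large part of the group's range, and chance flags about 1 in 20 groups. For GADD45A at 90 min post-IR, replicate 1 (132 CPM) was set off from the others (113 to 118 CPM) by 0.732 of the range. For GADD45A in the knockdown, replicate 5 (103 CPM) was set off from the others (83.7 to 88.3 CPM) by 0.757 of the range.

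The response to irradiation differed between the times for GADD45B. Its change against untreated cells at 7 days minus that at 90 min was -0.77 on the log2 scale (edgeR adjusted p = 3.06e-08). The log2 ratio of GADD45A to GADD45B was 1.09 higher at 7 days than at 90 min (exact permutation p = 0.00794, all 5 libraries at 7 days above all at 90 min).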

How the results depend on the processing

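For GADD45A and GADD45B, 112 of 114 results of alternatives other than leaving out a library stayed the same. That means an unchanged sign and call or, within a lane, a value within the replicate SD of the pooled one. An uncalled result could count as the same while its adjusted p changed. In the knockdown against 90 min, edgeR's adjusted p rose to 0.116 for GADD45A and 0.302 for GADD45B with lane as a factor. GADD45B in the knockdown against untreated lost its call with the lane as a factor (-0.54, adjusted p = 0.104). Within lane 5 GADD45B in the knockdown against 7 days moved in the same direction, from 0.33 to 0.41, and the log2 ratio from -1.04 to -1.20. Leaving out each library ended no call of these genes. Without 1 library the change of GADD45A ranged from 1.21 to 1.33 at 90 min, 1.53 to 1.64 at 7 days and 0.82 to 0.93 in the knockdown. That of GADD45B ranged from -0.21 to -0.07 at 90 min, -0.98 to -0.85 at 7 days and -0.65 to -0.52 in the knockdown. GADD45G gave a value in no alternative that kept the filter.

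Only the lane as a factor moved the number of genes called by over 1.5 times, from 548 to 3820 at 90 min, 1906 to 4088 in the knockdown and 2121 to 1186 in the knockdown against 90 min, and at 7 days it gave 6188 beside 4657. The replicate block gave 1.27, 1.59 and 0.88 for GADD45A and -0.14, -0.90 and -0.57 for GADD45B against untreated cells, and 496, 4628 and 1849 genes called. The numbers do not pair the samples, since 2 of 30 same-number pairs had correlated deviations above 0.1 (-0.25 to 0.12).

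Other genes changed sign. With library size alone these were NFKBIA at 7 days (0.033), and ATF4 (0.019) and MDM2 (0.00098) in the knockdown. Without a filter it was NFKB1 at 7 days (-0.0027). With the lane as a factor they were ATF4 (0.31), EGR1 (-0.88) and MYC (-0.39) at 90 min, ATF4 (0.015), MYC (-0.0041), TNFAIP3 (-0.066), DDIT4 (0.97) and ALPL (-0.11) at 7 days, and ATF4 (0.52), NFKB1 (0.070) and RELB (0.22) in the knockdown. Leaving out 1 library gave MYC -0.023 to 0.17 at 90 min, NFKBIA -0.11 to 0.086, NFKB1 -0.026 to 0.071, EGR1 -0.34 to 0.25 and RELA -0.25 to 0.032 at 7 days, and ATF4 -0.14 to 0.037, EGR1 -0.44 to 0.14 and RELA -0.28 to 0.0028 in the knockdown. The cause was not tested. Named genes not called against untreated and outside the 13 always named were summarised instead, a choice made after these values were seen. They became called in 32 of 1360 alternatives at 90 min, 27 of 795 at 7 days and 37 of 1608 in the knockdown, and changed sign uncalled in 80, 36 and 64. Depth limits GADD45G alone of the members.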
